A study of Rattus norvegicus with 12 samples.

Results

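The genes described here are the Wnt ligands, their receptors, their secreted inhibitors and the core of the intracellular relay, measured in rat retina after an injury by glutamate receptor overstimulation. Members were the protein-coding genes of the deposited table whose names begin with Wnt, Fzd, Rspo or Tcf7, or are Sfrp1 to Sfrp5, Frzb, Dkk1 to Dkk4, Lrp5, Lrp6, Axin1, Axin2, Ctnnb1, Lef1 or Wif1. The rule used names alone and no measured value, and it found 51 members among 30560 genes. They comprised 19 Wnt ligands, 4 R-spondins, 12 receptors (10 frizzleds, Lrp5 and Lrp6), 9 secreted inhibitors and 7 intracellular genes. Of the 51, 38 had enough counts to be tested and 13 did not.

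Retinas of 12 rats gave a total RNA library each. In the NMDA group, 6 rats received 2 µL of 20 mM NMDA into the vitreous of the eye. In the PBS group, 6 rats received 2 µL of phosphate-buffered saline by the same route. N-methyl-D-aspartate (NMDA) activates a class of glutamate receptors and is used to injure retinal neurons, ganglion cells above all. The sources used here give neither the strain and age nor the interval between injection and collection. The comparison asked which transcripts differ in the injured retina.

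Wnts are secreted, lipid-modified proteins that bind frizzled receptors together with Lrp5 or Lrp6. Binding stops the destruction complex, in which Axin1, Axin2 and Apc hold beta-catenin (encoded by Ctnnb1) for phosphorylation and breakdown, and beta-catenin then acts in the nucleus with Tcf7, Tcf7l1, Tcf7l2 or Lef1. R-spondins raise the number of frizzleds on the cell surface, Sfrp proteins, Frzb and Wif1 bind Wnts outside the cell, and Dickkopf proteins such as Dkk2 and Dkk4 block Lrp5 and Lrp6. In the eye the pathway patterns the optic cup, and signalling through Fzd4 and Lrp5 is needed for the retinal vessels.

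As examples of regulatory sequence, the promoters of 5 members are printed from RefSeq (GRCr8, the strand of transcription, 250 bases before to 50 after the annotated start). Axin2 and Fzd7 are shown because their windows hold the most copies of the core of the TCF/LEF motif, CTTTGA, searched on either strand (TCAAAG when it lies on the other). Capitals mark the motif. Axin2 is at chr10:94398535-94398834 and Fzd7 at chr9:68425288-68425587.
Axin2: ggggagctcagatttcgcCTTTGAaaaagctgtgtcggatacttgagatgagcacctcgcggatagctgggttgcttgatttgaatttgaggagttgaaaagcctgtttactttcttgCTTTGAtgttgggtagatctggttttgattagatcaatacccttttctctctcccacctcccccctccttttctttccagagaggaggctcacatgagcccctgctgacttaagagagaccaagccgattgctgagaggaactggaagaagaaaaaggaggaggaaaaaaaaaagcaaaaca
Fzd7: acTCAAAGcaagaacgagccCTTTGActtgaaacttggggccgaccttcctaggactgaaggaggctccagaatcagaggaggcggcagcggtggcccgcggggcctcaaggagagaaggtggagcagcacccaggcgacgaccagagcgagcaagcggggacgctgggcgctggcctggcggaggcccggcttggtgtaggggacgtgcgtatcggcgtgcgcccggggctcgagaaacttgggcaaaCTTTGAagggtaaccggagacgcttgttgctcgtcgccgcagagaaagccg
Relative to the annotated start, the copies in Axin2 begin at bases -232 and -132 and those in Fzd7 at bases -248, -230 and -1. Neither gene passed the test between NMDA and PBS. Wnt10a, Tcf7l2 and Fzd8 are shown as examples of members that changed without overlap of the groups. Fzd9, Sfrp2 and Wif1 also did so and had a promoter, but are not printed. The windows of Wnt10a, Tcf7l2 and Fzd8 are at chr9:83798344-83798643, chr1:264791085-264791384 and chr17:62009744-62010043, and hold no copy.
Wnt10a: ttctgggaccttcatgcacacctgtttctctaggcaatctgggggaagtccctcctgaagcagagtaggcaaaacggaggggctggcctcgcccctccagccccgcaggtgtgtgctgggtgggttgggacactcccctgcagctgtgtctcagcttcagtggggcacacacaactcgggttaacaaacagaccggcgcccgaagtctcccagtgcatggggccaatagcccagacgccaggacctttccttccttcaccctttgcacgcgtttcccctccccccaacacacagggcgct
Tcf7l2: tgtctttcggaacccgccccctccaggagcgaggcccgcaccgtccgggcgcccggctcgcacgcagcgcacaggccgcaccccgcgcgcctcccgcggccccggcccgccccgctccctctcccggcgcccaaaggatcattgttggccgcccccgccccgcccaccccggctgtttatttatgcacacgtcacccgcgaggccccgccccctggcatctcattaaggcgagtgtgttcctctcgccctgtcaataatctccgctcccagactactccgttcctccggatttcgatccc
Fzd8: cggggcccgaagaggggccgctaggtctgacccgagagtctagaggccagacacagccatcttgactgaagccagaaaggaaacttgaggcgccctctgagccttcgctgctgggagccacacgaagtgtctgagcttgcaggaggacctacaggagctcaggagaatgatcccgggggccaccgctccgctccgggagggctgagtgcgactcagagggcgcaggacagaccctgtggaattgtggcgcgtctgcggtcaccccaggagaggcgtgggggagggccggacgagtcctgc
A promoter could be matched to 35 of the 51 members. The motif was found in 4 of them (11.4%; Axin2, Fzd7, Tcf7 and Wnt8a), against 4353 of 27457 promoters of all genes (15.9%). Of the 12 changed members, 9 had a promoter in the table and 0 of these held the motif. The median GC content of the windows was 65.7% in members and 52.3% in all promoters. A match is a run of letters and says nothing of binding.

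Total counts ran from 16415611 to 34022023 per library. The retinal label held against its markers, since the 6 listed genes of bipolar cells, the retina's own relay neurons, summed to between 1340.4 and 1809 CPM (counts scaled to a common library size with TMM factors) in NMDA libraries and between 1635 and 1826 CPM in PBS libraries. Of 8 ganglion cell markers 7 fell, with sums of 136 to 408 CPM after NMDA against 598 to 718 CPM after PBS. Of 16260 genes tested across the table, 6167 changed at an adjusted p under 0.05 (37.9%; edgeR quasi-likelihood test, two-sided, Benjamini-Hochberg adjustment over all tested genes). On the first principal component NMDA 1 was at -8.2, the NMDA library nearest to the PBS libraries (11.2 to 47.4). On the second principal component NMDA 1 was at 62.2 and NMDA 3 at -32.5, the extremes of the 12 libraries. Ganglion cell sums were 367 CPM in NMDA 1 and 408 CPM in NMDA 3, against 136 to 189 CPM in the other NMDA libraries. Amacrine cell sums were 1178 and 1199.5 CPM in these libraries, against 866 to 989 CPM in the other NMDA libraries. The part of these differences in the member results was not tested. NMDA 1 had the lowest sums of pigment epithelium, lens and fibroblast markers among the NMDA libraries, at 32.7, 50.6 and 39.2 CPM. NMDA 3 had the highest sums of pigment epithelium and fibroblast markers of all libraries, at 429 and 253 CPM, and PBS 5 had the highest of the PBS libraries, at 346 and 148 CPM.

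Wnt pathway members changed in both directions after NMDA, in equal numbers. Of 38 tested members, 12 changed (31.6%), against 37.9% of all tested genes. Wnt10a, Fzd5, Lrp5, Tcf7l2, Tcf7l1 and Axin1 rose, 6 of 38 against 20.4% of all genes. Wnt9b, Fzd8, Fzd9, Dkk3, Sfrp2 and Wif1 fell, 6 of 38 against 17.5% of all genes. The groups did not overlap in 7 members, 2 with every NMDA library above and 5 with every NMDA library below the PBS libraries, against 18.1% of all genes (9.43% above and 8.66% below). Changes of at least 2-fold were found in 2 members, Wnt10a and Fzd9, against 6.05% of all genes. The median log2 fold change (NMDA over PBS) was 0.08 in tested members and 0.01 in all tested genes, and the median of its size was 0.28 in members and 0.19 in all genes. Libraries of whole retina were compared, so that fewer cells of a type and less RNA per cell cannot be told apart.

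**Figure D1:**
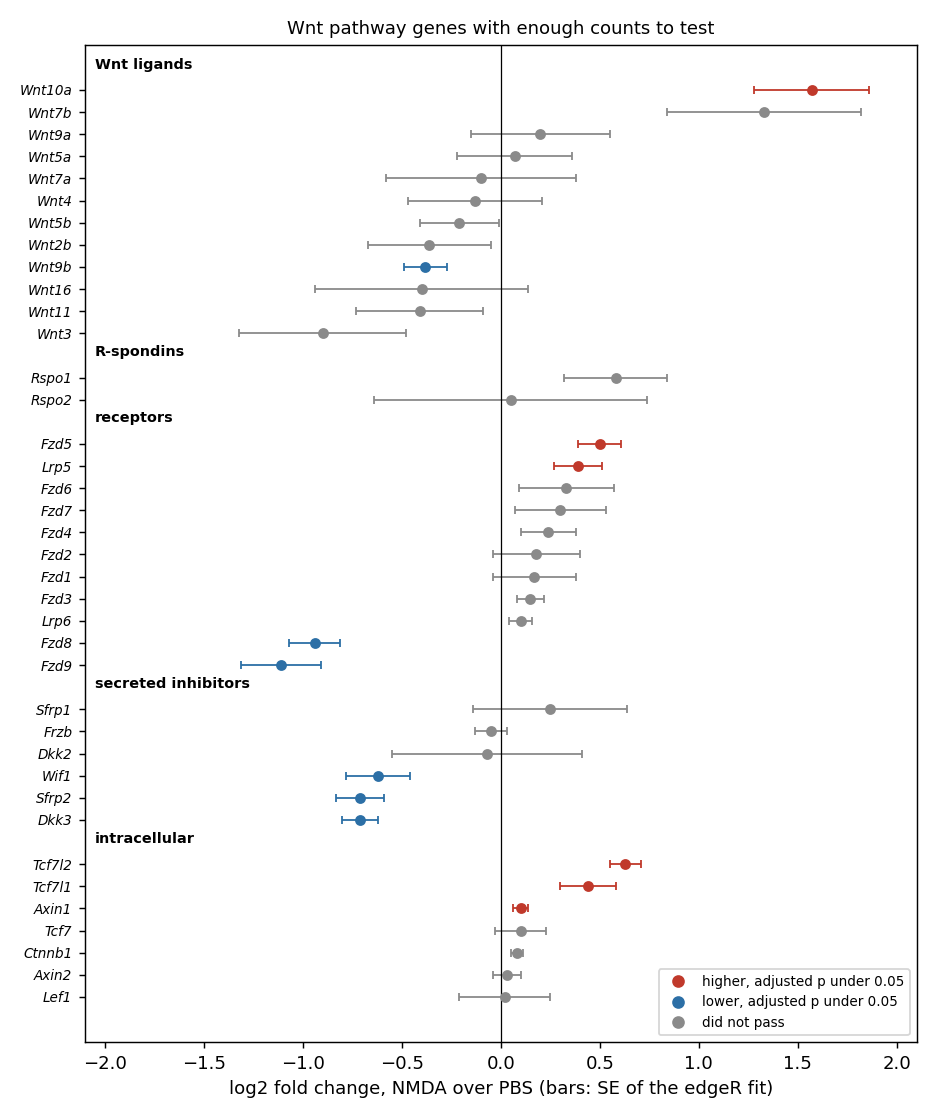
Log2 fold change (NMDA over PBS, horizontal axis) of the 38 tested members, grouped by role, with bars of 1 standard error derived from the edgeR test. Red points rose, blue points fell and grey points did not pass. All 3 changed inhibitors lie left of 0 and all 3 changed intracellular genes lie right of it. These roles hold 6 and 7 tested genes, and no role was tested as a set.

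Without NMDA 1 the same 6 genes rose and Wnt7b, Fzd6, Ctnnb1 and Lrp6 passed as well, 10 in all, while 6 fell. Without NMDA 1 and NMDA 3, a fit chosen after the data were seen, 8 rose and 7 fell. The members that passed there in addition were Wnt7b and Fzd6 (higher) and Fzd10 (lower). Without PBS 5 and NMDA 3, 5 rose and 7 fell. Each of Wnt10a, Fzd5, Lrp5, Tcf7l2, Wnt9b, Fzd8, Fzd9, Dkk3, Sfrp2 and Wif1 passed with the same sign in all 25 alternatives run, whereas Axin1 and Tcf7l1 did not.

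Among the ligands, Wnt10a rose, Wnt9b fell and 10 of 12 tested genes did not pass (16.7% changed, against 37.9% of all genes). Wnt10a, a ligand of the beta-catenin branch known for its part in teeth, hair and skin (ENSRNOG00000052510, chromosome 9, 76349931 to 76362400), had 1.72, 3.06 and 4.27 CPM (lowest, median and highest of 6 libraries) in NMDA retinas, against 0.406, 1.19 and 1.55 CPM in PBS retinas. Gene positions are those of the deposited table, for which the sources used here name no genome build. The groups did not overlap, and NMDA 1 was the lowest NMDA library. The means were 3.16 ± 0.919 CPM after NMDA and 1.07 ± 0.409 CPM after PBS (SD, n = 6 each), which is a log2 fold change of 1.57 ± 0.29 (SE; adjusted p = 0.00109, edgeR). This rests on 45 to 123 counts per NMDA library and 11 to 36 counts per PBS library. Wnt10a was thus a weakly expressed gene in both groups.

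Wnt9b, a ligand that acts in kidney and face development (ENSRNOG00000003807, chromosome 10, 88635331 to 88657035), had 3.29, 3.90 and 4.86 CPM in NMDA retinas, against 4.42, 5.15 and 6.12 CPM in PBS retinas. The ranges overlapped, as NMDA 2 lay above PBS 1 and PBS 3. Means were 3.98 ± 0.528 CPM after NMDA and 5.17 ± 0.572 CPM after PBS (SD, n = 6 each), and the gene fell, with a log2 fold change of -0.38 ± 0.11 (SE; adjusted p = 0.0181, edgeR).

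Wnt7b, a ligand that in mouse is made by neural tissue and by macrophages that prune the vessels of the developing eye (ENSRNOG00000015750, chromosome 7, 116634814 to 116679581), was the most abundant ligand per length in both groups. It had 7.09, 43.3, 39.7, 22.0, 34.2 and 40.3 CPM in NMDA 1 to NMDA 6, against 7.89, 2.94, 18.3, 7.98, 17.7 and 19.9 CPM in PBS 1 to PBS 6. From NMDA 2 to NMDA 6 each value lay above every PBS value, while NMDA 1 lay within the PBS range. The log2 fold change was 1.33 ± 0.49 (SE) and did not pass (edgeR adjusted p = 0.0529). It passed in 10 of 25 alternatives, and without NMDA 1 it was 1.53 (edgeR adjusted p = 0.0128). Adjusted p ran from 0.0128 to 0.101 over all of them.

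The other ligands whose mean log2 CPM reached 0 did not pass. Wnt5a, which acts mostly without beta-catenin, had 4.10, 8.97, 18.4, 7.14, 9.64 and 8.74 CPM in NMDA 1 to NMDA 6, against 7.09, 8.27, 8.04, 9.80, 13.7 and 7.57 CPM in PBS 1 to PBS 6. Its lowest and highest values were both in NMDA libraries, NMDA 1 and NMDA 3. Its log2 fold change was 0.07 ± 0.29 (SE; adjusted p = 0.884, edgeR). Wnt16, a ligand known from bone, averaged 1.97 ± 1.34 CPM after NMDA and 2.61 ± 1.96 CPM after PBS (SD, n = 6 each), with NMDA 3 and PBS 5 the highest of their groups. Wnt2b, which marks the rim of the developing eye, averaged 1.72 ± 0.678 CPM after NMDA and 2.23 ± 0.797 CPM after PBS. Wnt5b averaged 1.03 ± 0.235 CPM after NMDA and 1.21 ± 0.254 CPM after PBS. Wnt9a averaged 1.17 ± 0.595 CPM after NMDA and 1.02 ± 0.171 CPM after PBS. Adjusted p of these 4 ligands ran from 0.385 to 0.699 (edgeR). The remaining 4 tested ligands had a mean log2 CPM below 0 and did not pass.

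Counts were too few to test 7 ligands, Wnt1, Wnt2, Wnt3a, Wnt6, Wnt8a, Wnt8b and Wnt10b. Wnt1, Wnt3a and Wnt10b had 2, 2 and 3 counts over the 6 NMDA libraries and 0 over the 6 PBS libraries. Wnt6, a ligand of epithelia, had 69 of its 86 NMDA counts in NMDA 3 and 32 of its 49 PBS counts in PBS 5, the libraries with the highest pigment epithelium and fibroblast marker sums of their groups. Whether carried-over cells gave these counts was not tested.

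No R-spondin passed. Rspo1, which binds Lgr receptors and spares frizzleds from removal, averaged 1.72 ± 0.403 CPM after NMDA and 1.16 ± 0.420 CPM after PBS (SD, n = 6 each), which is a log2 fold change of 0.58 ± 0.26 (SE; adjusted p = 0.104, edgeR). Rspo2 had at most 0.588 CPM in 10 libraries, and 1.97 CPM in NMDA 3 and 1.67 CPM in PBS 5. Rspo3 and Rspo4 were not tested, with at most 10 counts in any library.

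Of 11 tested receptors 4 changed (36.4%, against 37.9% of all genes). Fzd5 and Lrp5 rose, Fzd8 and Fzd9 fell, and the other 7 did not pass. Fzd5, a frizzled needed for eye field and optic cup development (ENSRNOG00000014678, chromosome 9, 66113112 to 66121457), had 76.3, 108 and 124 CPM in NMDA retinas, against 65.9, 73.1 and 82.5 CPM in PBS retinas. The groups overlapped through NMDA 3, the lowest NMDA library, which lay below PBS 3 and PBS 4. Means were 104 ± 18.7 CPM after NMDA and 73.8 ± 6.97 CPM after PBS (SD, n = 6 each), which is a log2 fold change of 0.50 ± 0.11 (SE; adjusted p = 0.00389, edgeR). Per length it was the most abundant frizzled, at 13.2 ± 2.44 FPKM after NMDA and 8.99 ± 0.860 FPKM after PBS.

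Lrp5, the co-receptor whose loss leaves the retina with defective vessels (ENSRNOG00000015911, chromosome 1, 200814250 to 200917581), had 26.3, 36.4 and 47.5 CPM in NMDA retinas, against 25.1, 26.6 and 34.0 CPM in PBS retinas. NMDA 1 lay among the PBS libraries and the other 5 NMDA libraries lay above all of them, while PBS 5 stood above the other PBS libraries. Its log2 fold change was 0.39 ± 0.12 (SE; adjusted p = 0.0189, edgeR). Of 8 endothelial markers 3 rose (Pecam1, Tek and Flt1), with sums of 722 to 982 CPM after NMDA and 723 to 807 CPM after PBS, and their part in the Lrp5 result was not tested. Lrp6, the paralog of Lrp5, averaged 66.7 ± 5.33 CPM after NMDA and 62.1 ± 3.15 CPM after PBS and did not pass (edgeR adjusted p = 0.163).

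Fzd8, the close relative of Fzd5 (ENSRNOG00000069521, chromosome 17, 57314450 to 57320650), moved the other way. It had 6.31, 7.60 and 11.6 CPM in NMDA retinas, against 13.4, 15.7 and 17.5 CPM in PBS retinas. Every NMDA library lay below every PBS library. The means were 8.14 ± 1.88 CPM after NMDA and 15.6 ± 1.39 CPM after PBS (SD, n = 6 each), which is a log2 fold change of -0.94 ± 0.13 (SE; adjusted p = 0.000209, edgeR). Fzd9, a frizzled known from brain and bone (ENSRNOG00000001452, chromosome 12, 21427084 to 21429398), had 1.55, 2.61 and 3.30 CPM in NMDA retinas, against 3.84, 5.82 and 6.50 CPM in PBS retinas, again without overlap. It fell, with a log2 fold change of -1.11 ± 0.20 (SE; adjusted p = 0.00103, edgeR), the largest fall among the members.

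Beside these falls, summed markers of ganglion, amacrine, cone and horizontal cells were all lower after NMDA without overlap. All 8 amacrine markers fell, with sums of 866 to 1199.5 CPM after NMDA and 1504 to 1582 CPM after PBS. Of 5 cone markers 3 fell, with sums of 236 to 346 CPM after NMDA and 363 to 445 CPM after PBS. Of 3 horizontal cell markers 1 fell, with sums of 47.5 to 61.1 CPM after NMDA and 61.6 to 85.7 CPM after PBS. Of 6 bipolar cell markers 1 fell, with overlapping sums of 1340.4 to 1809 CPM after NMDA and 1635 to 1826 CPM after PBS. Each of these markers was detected, and the part of these cells in the Fzd8 and Fzd9 results was not tested.

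The other frizzleds had positive log2 fold changes that did not pass. Fzd6 averaged 11.8 ± 4.06 CPM after NMDA and 9.42 ± 1.52 CPM after PBS (edgeR adjusted p = 0.312), with NMDA 1 below every other library of both groups, at 4.37 CPM. It passed without NMDA 1, at a log2 fold change of 0.49 (edgeR adjusted p = 0.00845). Fzd7 averaged 9.63 ± 3.58 CPM after NMDA and 7.86 ± 1.59 CPM after PBS. Fzd4, the norrin receptor of retinal endothelium, averaged 9.69 ± 1.74 CPM after NMDA and 8.22 ± 1.41 CPM after PBS (log2 fold change 0.24 ± 0.14, SE; edgeR adjusted p = 0.206). Fzd2 averaged 27.1 ± 10.5 CPM after NMDA and 23.9 ± 2.66 CPM after PBS. Fzd1 averaged 9.55 ± 3.01 CPM after NMDA and 8.48 ± 1.79 CPM after PBS. Fzd3, which guides axons through planar cell polarity, averaged 17.5 ± 0.680 CPM after NMDA and 15.8 ± 1.76 CPM after PBS (edgeR adjusted p = 0.114). Fzd10 was not tested.

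Of 6 tested secreted inhibitors 3 fell, Dkk3, Sfrp2 and Wif1, and 0 rose, against 17.5% lower and 20.4% higher of all genes. In each of the 3 every NMDA library lay below every PBS library, against 8.66% of all genes. The inhibitors were not tested as a set. Dkk3, a divergent Dickkopf protein that is not an established blocker of Lrp5 or Lrp6 (ENSRNOG00000016343, chromosome 1, 166238238 to 166280590), had 833, 977 and 1263 CPM in NMDA retinas, against 1407, 1632 and 1809 CPM in PBS retinas. Its means were 997 ± 148 CPM after NMDA and 1626 ± 129 CPM after PBS (SD, n = 6 each), which is a log2 fold change of -0.71 ± 0.09 (SE; adjusted p = 0.000134, edgeR). Per length it was the most abundant of all members, at 202 ± 29.1 FPKM after NMDA and 319 ± 25.2 FPKM after PBS.

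Sfrp2, a secreted frizzled-related protein that binds Wnts (ENSRNOG00000009465, chromosome 2, 169089517 to 169097063), had 16.9, 19.4 and 25.6 CPM in NMDA retinas, against 26.1, 33.7 and 40.4 CPM in PBS retinas. Means were 20.4 ± 3.65 CPM after NMDA and 33.2 ± 4.68 CPM after PBS (SD, n = 6 each), which is a log2 fold change of -0.71 ± 0.12 (SE; adjusted p = 0.000739, edgeR). The highest NMDA value (NMDA 1) and the lowest PBS value (PBS 3) nearly met. Wif1, Wnt inhibitory factor 1 (ENSRNOG00000004476, chromosome 7, 56548053 to 56618360), had 1.80, 2.13 and 2.58 CPM in NMDA retinas, against 2.66, 3.13 and 4.65 CPM in PBS retinas, and fell, with a log2 fold change of -0.62 ± 0.16 (SE; adjusted p = 0.0085, edgeR). Its gap between the groups was also narrow.

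Markers of several cell types were lower beside these falls as well. Of 9 markers of Müller glia, the radial glia that span the retina, 5 fell and 2 rose, with overlapping sums of 3789 to 4312 CPM after NMDA and 4292 to 5307 CPM after PBS. Of the sums given with Fzd8 and Fzd9, those of ganglion, amacrine, cone and horizontal cells were lower without overlap, while those of bipolar cells overlapped. The part of all these cells in the inhibitor results was not tested.

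The other inhibitors with enough counts did not pass. Frzb, a Wnt-binding protein and the second most abundant inhibitor per length, averaged 72.8 ± 10.5 CPM after NMDA and 75.2 ± 4.80 CPM after PBS (SD, n = 6 each), which is a log2 fold change of -0.05 ± 0.08 (SE; adjusted p = 0.711, edgeR). Sfrp1 had 3.49, 23.4, 27.5, 15.4, 21.4 and 19.4 CPM in NMDA 1 to NMDA 6, against 12.6, 8.90, 24.2, 12.6, 16.2 and 18.9 CPM in PBS 1 to PBS 6. NMDA 1 was the lowest of all libraries and NMDA 3 the highest, and the log2 fold change was 0.25 ± 0.39 (SE; adjusted p = 0.654, edgeR). Dkk2 had at most 0.754 CPM in every library but NMDA 3. Dkk4, Sfrp4 and Sfrp5 were not tested, and Dkk1 was not analysed here.

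**Figure D2:**
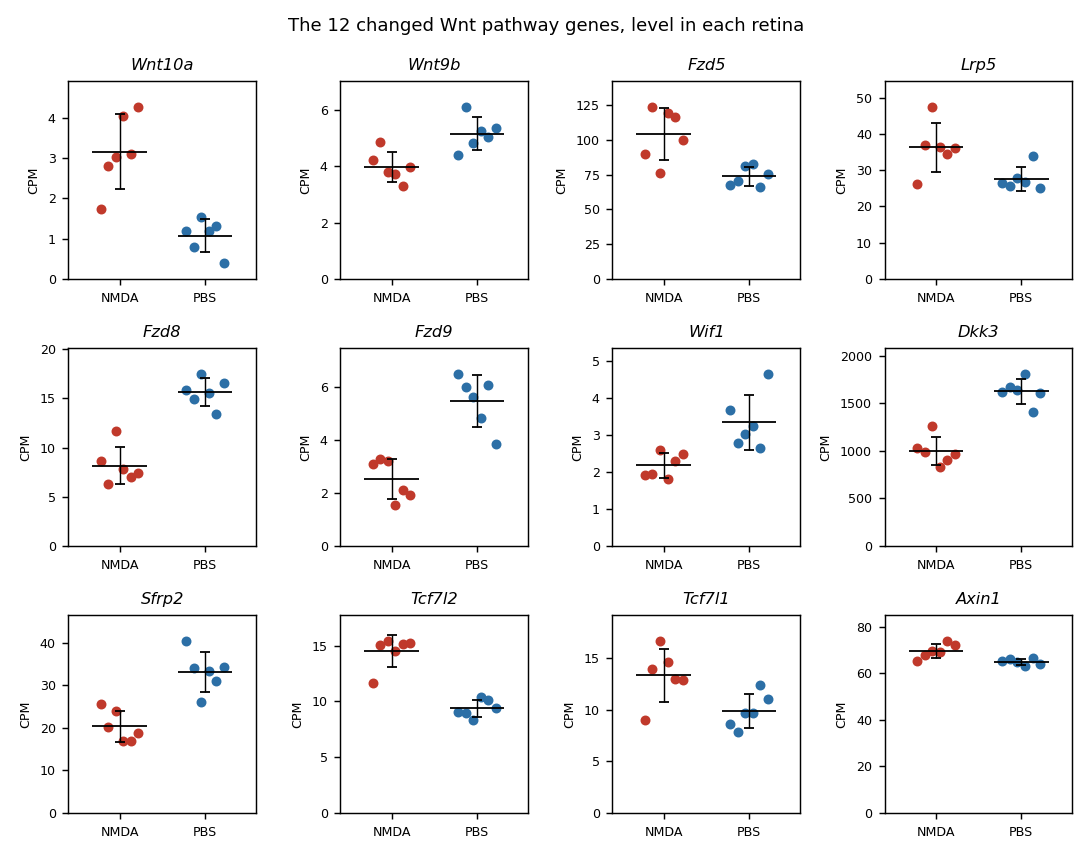
Level (CPM, vertical axes from 0) of the 12 changed members in each retina, NMDA left in red and PBS right in blue, with lines at the mean and bars of 1 SD (n = 6 each). The groups do not overlap in Wnt10a, Fzd8, Fzd9, Wif1, Dkk3, Sfrp2 and Tcf7l2, while they overlap in the other 5.

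Inside the cell, Tcf7l2, Tcf7l1 and Axin1 rose and 4 of 7 genes did not pass. That is 42.9% changed, all higher, against 37.9% changed and 20.4% higher of all genes. Tcf7l2, a DNA-binding partner of beta-catenin (ENSRNOG00000049232, chromosome 1, 254786091 to 254978967), had 11.6, 15.1 and 15.4 CPM in NMDA retinas, against 8.35, 9.19 and 10.4 CPM in PBS retinas. The groups did not overlap, and NMDA 1 stood below the other NMDA libraries. Its means were 14.5 ± 1.45 CPM after NMDA and 9.37 ± 0.774 CPM after PBS (SD, n = 6 each), which is a log2 fold change of 0.63 ± 0.08 (SE; adjusted p = 0.000159, edgeR).

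Tcf7l1, a family member that mostly represses its targets (ENSRNOG00000014753, chromosome 4, 104680739 to 104845287), had 8.97, 13.5 and 16.7 CPM in NMDA retinas, against 7.84, 9.69 and 12.4 CPM in PBS retinas. NMDA 1 lay among the PBS libraries. Its log2 fold change was 0.44 ± 0.14 (SE; adjusted p = 0.0286, edgeR), and adjusted p was 0.0508 to 0.0648 when any 1 of NMDA 2, NMDA 3, NMDA 4, PBS 1, PBS 2, PBS 3 and PBS 4 was left out. Axin1, a scaffold of the destruction complex (ENSRNOG00000062714, chromosome 10, 15163684 to 15215615), had 65.4, 69.5 and 74.1 CPM in NMDA retinas, against 63.2, 65.1 and 66.5 CPM in PBS retinas. The difference was small, a log2 fold change of 0.10 ± 0.04 (SE; adjusted p = 0.0421, edgeR), and it missed the threshold in 15 of 25 alternatives, among them the DESeq2 Wald test (adjusted p = 0.0558) and every fit without a single library other than NMDA 1 and NMDA 2 (adjusted p up to 0.0938).

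Axin2 and Lef1, widely used as readouts of beta-catenin signalling because they are themselves its targets, did not pass. Axin2 averaged 25.5 ± 1.75 CPM after NMDA and 24.9 ± 2.69 CPM after PBS (SD, n = 6 each), which is a log2 fold change of 0.03 ± 0.07 (SE; adjusted p = 0.764, edgeR). Lef1 averaged 2.46 ± 0.706 CPM after NMDA and 2.44 ± 0.802 CPM after PBS, a log2 fold change of 0.02 ± 0.23 (SE; adjusted p = 0.968, edgeR). Ctnnb1, which encodes beta-catenin itself, averaged 581 ± 21.7 CPM after NMDA and 551 ± 9.83 CPM after PBS, a log2 fold change of 0.08 ± 0.03 (SE; adjusted p = 0.0907, edgeR). Tcf7 averaged 5.85 ± 1.08 CPM after NMDA and 5.47 ± 0.585 CPM after PBS (edgeR adjusted p = 0.593). Tcf7 and Lef1 are also expressed in T cells, whose 6 measured markers summed to 2.76 to 7.25 CPM after NMDA and 0.653 to 2.38 CPM after PBS. Of these markers 3 had enough counts to test, and 2 rose. The part of such cells in the Tcf7 and Lef1 levels was not tested.

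Many members varied within their groups along the same libraries. NMDA 3 was the highest NMDA library in 24 of 38 tested members and NMDA 1 the lowest in 23 of 38, while PBS 5 was the highest PBS library in 15 of 38. These counts were not made over all tested genes, where NMDA 1 and NMDA 3 were also the extremes of the second principal component. When the mean log2 CPM of the 8 pigment epithelium markers entered the fit as a covariate, 14 members rose and 6 fell. Fzd4, Fzd6, Fzd7, Ctnnb1, Lrp6, Rspo1, Wnt5a and Wnt7b passed in addition in that fit, all of them higher. Of these 8 markers, 4 fell after NMDA (Rpe65, Ttr, Lrat and Rgr), so the covariate itself differs between the groups. Their summed level was 32.7 to 429 CPM after NMDA and 129.9 to 346 CPM after PBS. With the lens markers as a covariate, 8 members rose and 6 fell.

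**Figure D3:**
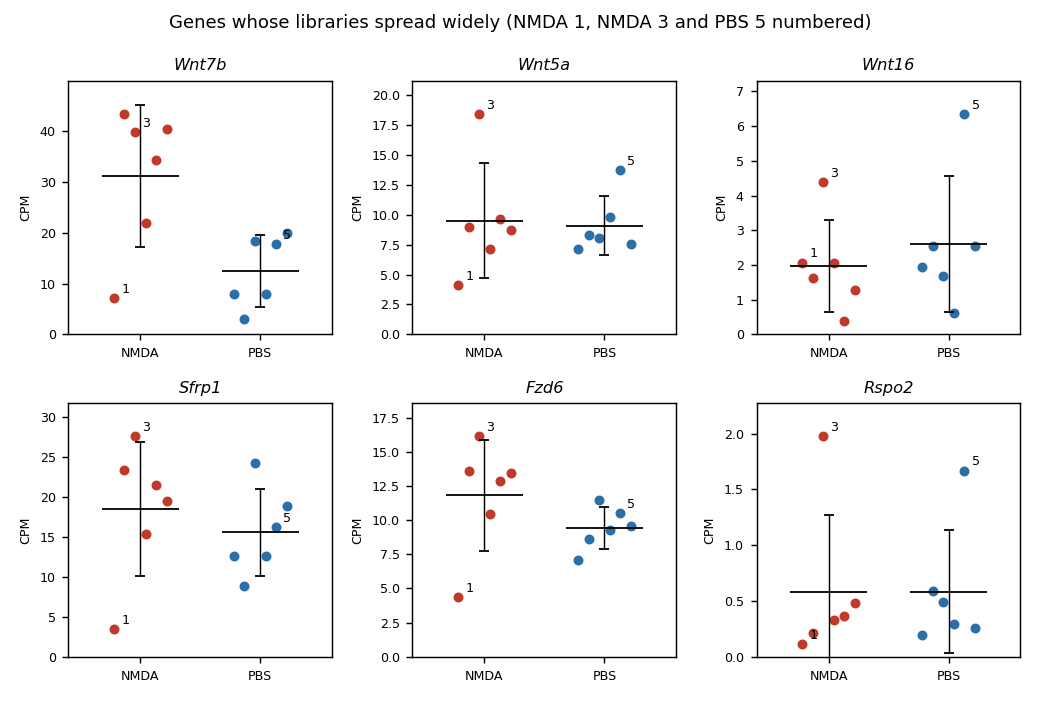
Level (CPM, vertical axes from 0) in each retina of 6 members that did not pass, chosen after their values were seen for their wide spread, NMDA left in red and PBS right in blue, with the mean and 1 SD (n = 6 each). Numbers mark NMDA 1, NMDA 3 and PBS 5. NMDA 1 is the lowest NMDA library in every panel but that of Wnt16, and PBS 5 is the highest PBS library for Wnt5a, Wnt16 and Rspo2.

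Per length, the mean make-up of the families was not the same in the groups. Wnt7b took 48.9% ± 13.1 of the summed FPKM of the 19 ligands after NMDA and 27.7% ± 11.997 after PBS (SD, n = 6 each). Wnt10a took 8.97% ± 2.84 after NMDA and 4.24% ± 1.75 after PBS. Wnt5a took 10.2% ± 1.93 after NMDA and 14.6% ± 4.01 after PBS. The ligands together summed to 15.6 ± 5.61 FPKM after NMDA and 10.6 ± 3.12 FPKM after PBS, and without Wnt7b to 7.61 ± 2.74 FPKM after NMDA and 7.52 ± 2.00 FPKM after PBS. The excess of the NMDA mean thus lay almost wholly in Wnt7b, which did not pass.

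Among the 10 frizzleds, Fzd5 took 32.4% ± 5.61 after NMDA and 25.6% ± 2.51 after PBS. Fzd8 took 3.34% ± 0.947 after NMDA and 7.07% ± 0.722 after PBS. Fzd9 took 2.77% ± 0.958 after NMDA and 6.64% ± 1.31 after PBS. Shares of Fzd8 did not overlap between the groups, at most 4.48% after NMDA and at least 5.70% after PBS, nor did those of Fzd9, at most 4.32% after NMDA and at least 4.58% after PBS. Dkk3 dominated the 9 inhibitors, with 82.4% ± 1.52 after NMDA and 86.8% ± 1.27 after PBS. The inhibitors summed to 245 ± 31.8 FPKM after NMDA and 367 ± 24.1 FPKM after PBS, and without Dkk3 to 42.7 ± 4.07 FPKM after NMDA and 48.3 ± 1.81 FPKM after PBS. These shares and sums were described and not tested.

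**Figure D4:**
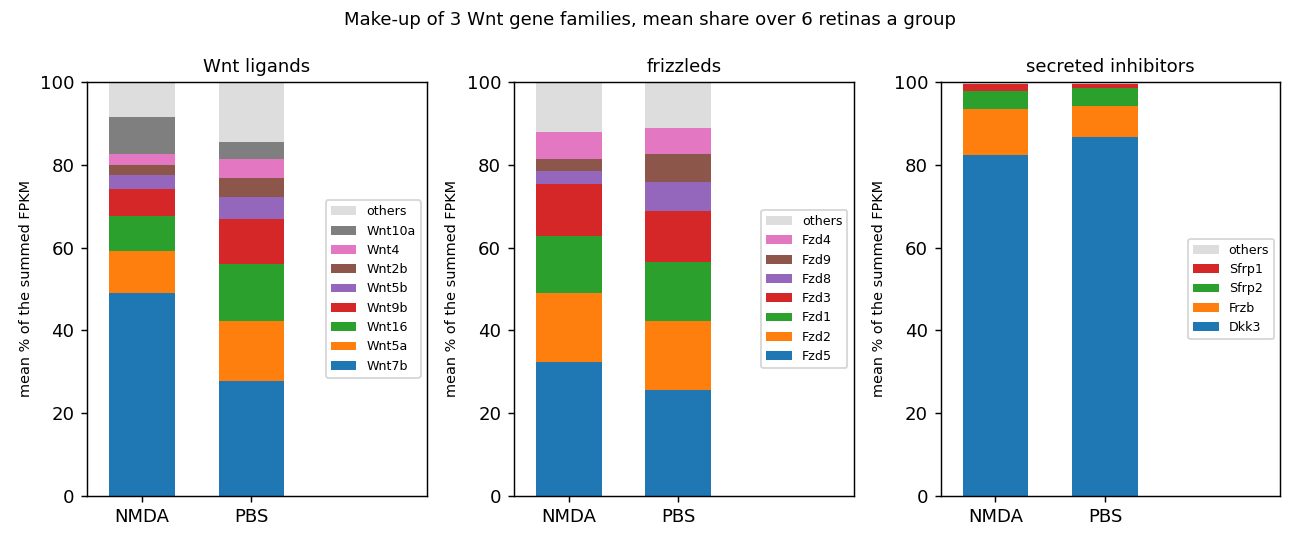
Mean share (%, vertical axis from 0 to 100) of each gene in the summed FPKM of its family, NMDA left and PBS right, over 6 retinas a group. Wnt7b and Fzd5 hold larger mean shares after NMDA, and Fzd8, Fzd9 and Dkk3 smaller ones.

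In the wider pathway a similar share of genes changed. A list of 88 other pathway symbols was drawn up by role, with earlier results of these data known. The table held 85 of them, and 80 were tested. Of these, 13 rose and 11 fell (30.0%, against 37.9% of all genes), and the median log2 fold change was -0.01. Without NMDA 5, 11 rose and 7 fell. By role, 5 of 8 common target genes rose and 1 fell, and 3 of 11 co-receptors and turnover genes rose and 1 fell. In the secretion role 0 of 7 genes passed. In the cytoplasmic relay, 2 of 24 rose and 4 fell. Of all tested genes, 20.4% rose and 17.5% fell. The target role left out members, among them the targets Axin2 and Lef1, which did not pass. It also left out Nkd1, a feedback inhibitor filed under the relay, which fell.

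Kremen1, a co-receptor through which Dickkopfs remove Lrp6 from the surface, had 46.2, 63.4 and 99.4 CPM in NMDA retinas, against 24.2, 29.5 and 36.5 CPM in PBS retinas, without overlap (log2 fold change 1.16 ± 0.19, SE here and in the genes that follow; edgeR adjusted p = 0.000571). Ryk, a kinase-dead Wnt receptor of axons, had 30.2, 39.4 and 41.2 CPM in NMDA retinas, against 26.0, 27.7 and 31.8 CPM in PBS retinas (log2 fold change 0.43 ± 0.08; edgeR adjusted p = 0.000767). Lgr5, an R-spondin receptor, fell to 14.1 ± 1.35 CPM after NMDA, against 16.9 ± 0.912 CPM after PBS (log2 fold change -0.26 ± 0.07; edgeR adjusted p = 0.0102). Znrf3, the ligase that removes frizzleds, rose by 0.14 on the log2 scale (edgeR adjusted p = 0.0363) and missed the threshold in 14 of 25 alternatives (adjusted p up to 0.145).

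Norrin, encoded by Ndp, is a ligand of Fzd4 that is not a Wnt and that Müller glia make in mouse. Ndp had 19.2, 25.8 and 29.0 CPM in NMDA retinas, against 12.3, 12.7 and 14.3 CPM in PBS retinas, without overlap. The log2 fold change was 0.93 ± 0.09 (SE; adjusted p = 2.45e-05, edgeR), and the other 3 genes of its list did not pass. Apcdd1, a membrane-bound inhibitor found in retinal endothelium, also rose without overlap, to 25.5 ± 3.40 CPM after NMDA, against 16.7 ± 2.03 CPM after PBS (log2 fold change 0.61 ± 0.10; edgeR adjusted p = 0.000499). Sostdc1, a secreted Lrp antagonist, fell, with a log2 fold change of -0.49 ± 0.16 (edgeR adjusted p = 0.0294), and missed the threshold in 6 of 25 alternatives, 5 of them without 1 library (adjusted p up to 0.0687) and 1 with the pigment epithelium covariate (log2 fold change -0.26, adjusted p = 0.268).

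In the relay, Apc2, the neural relative of Apc, had 133, 156 and 178 CPM in NMDA retinas, against 196, 216 and 238 CPM in PBS retinas, without overlap (log2 fold change -0.49 ± 0.07; edgeR adjusted p = 0.000234). Nkd1, a feedback inhibitor that binds Dishevelled, had 31.3, 37.3 and 84.4 CPM in NMDA retinas, against 68.6, 83.5 and 122 CPM in PBS retinas (log2 fold change -0.98 ± 0.25; edgeR adjusted p = 0.00809). Dact2, another Dishevelled-binding protein, fell, with a log2 fold change of -0.33 ± 0.09 (edgeR adjusted p = 0.0117). Fbxw11, a subunit of the ligase that marks beta-catenin for breakdown, rose by 0.25 on the log2 scale (edgeR adjusted p = 0.00526). Of 11 nuclear cofactors only Tle4, a corepressor, passed, with a log2 fold change of -0.19 ± 0.05 (edgeR adjusted p = 0.013). Tle4 missed the threshold with library size only (log2 fold change -0.14, adjusted p = 0.050025) and with the pigment epithelium covariate (log2 fold change -0.12, adjusted p = 0.128).

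In the planar cell polarity branch, Vangl1 rose to 10.4 ± 1.76 CPM after NMDA, against 6.50 ± 1.34 CPM after PBS (log2 fold change 0.68 ± 0.15; edgeR adjusted p = 0.00328). Prickle1, a partner of the Vangl proteins, fell, with a log2 fold change of -0.26 ± 0.06 (edgeR adjusted p = 0.0041). Prickle2 and Celsr3 also fell, with log2 fold changes of -0.19 and -0.12. Prickle2 missed the threshold in 10 of 25 alternatives (adjusted p up to 0.101). Celsr3 missed it in 13 of 25 (adjusted p up to 0.182), with a log2 fold change as small as -0.065.

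The target genes listed are regulated by many pathways besides Wnt. Ccnd1, which encodes the cell cycle protein cyclin D1, had 42.6, 75.9 and 114 CPM in NMDA retinas, against 6.74, 9.11 and 14.2 CPM in PBS retinas, a log2 fold change of 3.03 ± 0.26 (SE; adjusted p = 2.01e-05, edgeR). Myc, a growth-promoting transcription factor, had 2.91, 5.83 and 8.81 CPM in NMDA retinas, against 0.399, 0.923 and 1.90 CPM in PBS retinas (log2 fold change 2.52 ± 0.35; edgeR adjusted p = 0.000206). Fosl1, an AP-1 subunit, averaged 4.13 ± 1.05 CPM after NMDA and 1.66 ± 0.201 CPM after PBS (log2 fold change 1.31 ± 0.19; edgeR adjusted p = 0.000247). Cd44, a hyaluronan receptor of activated glia and leukocytes, averaged 85.4 ± 28.2 CPM after NMDA and 37.1 ± 4.37 CPM after PBS (log2 fold change 1.21 ± 0.18; edgeR adjusted p = 0.000446). In these 4 genes every NMDA library lay above every PBS library.

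Sp5 and Ccn4, named here after their values were seen, are targets more closely tied to beta-catenin. Sp5, a transcription factor, averaged 0.814 ± 0.423 CPM after NMDA and 0.288 ± 0.173 CPM after PBS (log2 fold change 1.53 ± 0.44; edgeR adjusted p = 0.0156). It rests on few counts, 6 to 48 per NMDA library and 3 to 15 per PBS library. The groups overlapped, with NMDA 1 and NMDA 4 within the PBS range. Ccn4, a matricellular protein also called Wisp1, went the other way, with 3.37 ± 0.999 CPM after NMDA and 8.27 ± 2.29 CPM after PBS (log2 fold change -1.30 ± 0.22; edgeR adjusted p = 0.000715). Beside the target genes, 7 of 8 microglia and macrophage markers rose and P2ry12, a marker of resting microglia, fell, with sums of 87.3 to 165 CPM after NMDA and 55.8 to 79.4 CPM after PBS. Of 4 astrocyte markers 1 rose (Gfap, which stressed Müller glia also make), with sums of 309 to 791 CPM after NMDA and 103 to 297 CPM after PBS. The part of these cells in the target gene results was not tested.

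**Figure D5:**
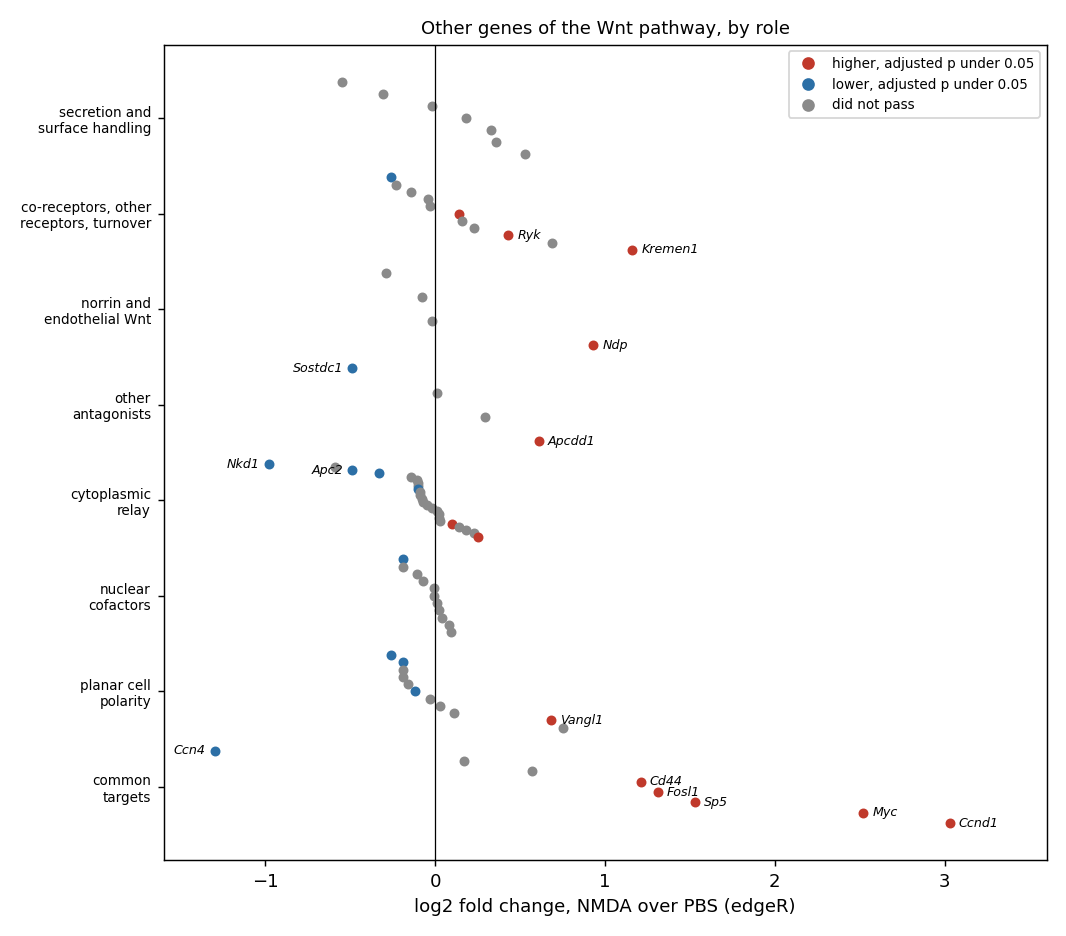
Log2 fold change (NMDA over PBS, horizontal axis, edgeR) of the 80 tested genes of the wider pathway list, a row of points for each role, red for higher, blue for lower and grey for genes that did not pass. Most points lie near 0, whereas Ccnd1 and Myc lie beyond 2 and Ccn4 beyond -1.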

How the data were processed

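Total RNA of 12 rat retinas, 6 injected with NMDA and 6 with PBS, was sequenced, and the groups were taken from the labels. Whole-number counts per gene and FPKM values were deposited by the authors for all 12 libraries in a table that also gives gene names, types and positions, per the file headers. Bowtie2, RSEM 1.3.1 and DESeq2 1.4.5 stand in the submitters' processing notes, which assign them no step. Build, strandedness and multi-mapping rules are not given in the sources used here, so counts of near-identical or overlapping genes are uncertain. Each label names a separate rat.

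Counts were filtered with filterByExpr (count minimum 10, total minimum 15), scaled by TMM factors (0.976 to 1.03) and tested with edgeR 4.0.16 in R 4.3.3 (robust quasi-likelihood fit with the group as the only term, two-sided) over 16260 genes. P-values were adjusted by Benjamini-Hochberg over all of them, with a threshold of 0.05. SE is a standard error derived from that test, the size of the log2 fold change divided by the square root of its F statistic. CPM values are counts scaled to a common library size with the TMM factor, and FPKM served to compare genes per length. Total counts of 16415611 to 34022023 per library set the precision, and members below 1 CPM rest on few counts per library.

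Every member past the threshold was named. Members that did not pass were named where their mean log2 CPM was at least 0, and members outside that rule were named after their values were seen. From each role of the pathway list up to 4 genes past the threshold with the smallest adjusted p were named. Ep300, in 2 rows of the table, Cby1 and Cldn5 were not analysed here, and the summed rod markers are not reported here. Members and lists were chosen with earlier results of these data known, and no test was made of a list as a set. Alternatives changed the scaling, the filter, the test (DESeq2 1.42.0 Wald test, limma 3.58.1 voom with quality weights, limma on log2(FPKM + 1) and log2(FPKM + 0.1), whose fold changes understate low genes), left out each library in turn or PBS 5 and NMDA 3 together, added the replicate number as a block, or added lens or pigment epithelium markers as a covariate. A fit without NMDA 1 and NMDA 3 was chosen after seeing the data. Promoters were matched by symbol to RefSeq (GRCr8), whose positions are not those of the deposited table. The main fit was also run on counts simulated from its own means and spread, without outlying libraries. That run says nothing of libraries such as NMDA 1, NMDA 3 and PBS 5.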

Additional observations from a re-analysis of the deposited data

Results flagged for a closer look

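In 8 of the 76 groups of 6 libraries formed by the 38 tested members, the highest or lowest library stood apart from the other 5 by Dixon's criterion at the 95% level, which chance meets in about 1 of 20 groups. In Rspo2, NMDA 3 had 1.97 CPM, against 0.115 to 0.485 CPM in the other NMDA libraries. PBS 5 had 1.67 CPM of the same gene, against 0.198 to 0.588 CPM in the other PBS libraries. In Dkk2, NMDA 3 had 1.05 CPM and the other NMDA libraries 0.142 to 0.405 CPM. PBS 5 was the highest PBS library in 4 further genes. It had 1.35 CPM of Wnt9a, against 0.858 to 1.02 CPM in the others. For Lrp5 it had 34.0 CPM, against 25.1 to 28.0 CPM. For Lef1 it had 4.01 CPM, against 1.85 to 2.48 CPM. For Wnt16 it had 6.35 CPM, against 0.617 to 2.55 CPM. In Tcf7l2, NMDA 1 had 11.6 CPM, below 14.5 to 15.4 CPM in the other NMDA libraries and above every PBS library. NMDA 3 and PBS 5 had the highest summed pigment epithelium markers of their groups, at 429 and 346 CPM, and NMDA 1 the lowest of all libraries, at 32.7 CPM. NMDA 1 and NMDA 3 also had the highest summed ganglion cell markers of the NMDA libraries, at 367 and 408 CPM, against 136 to 189 CPM. The part of these cells in the values was not tested.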

How the results depend on the processing

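Of the 12 changed members, 10 kept their call and sign in all 25 alternatives, and none of the 12 changed sign. Axin1 lost its call in 15 and Tcf7l1 in 7. Of the 26 tested members that did not pass, 10 passed under some alternative, Wnt7b most often. With pigment epithelium markers as a covariate 14 members were higher. Scaling by library size only gave 7 lower genes in the pathway list, and moved the share of higher genes among all changed genes to 64.6%, against 53.8% with TMM, where the median of all log2 fold changes was 0.06, against 0.01 with TMM. That scaling gave 9 higher and 6 lower members. Without 1 library at a time, 4 to 10 members were higher and 6 to 7 lower, with 10 higher without NMDA 1. The pathway list had 11 to 15 higher and 7 to 15 lower genes, with 7 lower without NMDA 5. All genes had 2832 to 3397 higher and 2415 to 3232 lower.

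Equal numbers did not pair the libraries. The correlation of deviations from the group means over 16260 genes ran from -0.19 to 0.15, and no library correlated best with its own number. With the replicate number as a block, 5 members were higher and 6 lower, and 2948 and 2645 of all genes.

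Sign changes were found among members that did not pass. For Rspo2 the log2 fold change was -0.0015 with the DESeq2 Wald test, -0.20 with voom, -0.031 with log2(FPKM + 0.1), -0.19 with the block, -0.0080 with the lens covariate and -0.73 without NMDA 1 and NMDA 3. With the pigment epithelium covariate it was 0.49 for Dkk2, 0.19 for Wnt4, 0.067 for Wnt5b, 0.15 for Wnt16, 0.62 for Wnt7a and 0.076 for Wnt2b. Wnt7a had 0.0012 with voom and Frzb 0.0014 with library size only. Wnt5a had -0.042 with the block, -0.078 without PBS 5 and NMDA 3 and -0.082 without NMDA 1 and NMDA 3. In this last fit Axin2 had -0.029 and Lef1 -0.15. Without 1 library the log2 fold change ran from -0.92 to 0.74 in Rspo2, -0.67 to 0.18 in Dkk2, -0.013 to 0.32 in Fzd2, -0.31 to 0.096 in Wnt4, -0.0079 to 0.064 in Axin2, -0.13 to 0.0083 in Frzb, -0.13 to 0.22 in Lef1, -0.82 to 0.082 in Wnt16, -0.33 to 0.16 in Wnt7a and -0.23 to 0.22 in Wnt5a. The cause of these changes was not tested. At these depths, genes below about 1 CPM allow large changes alone to be seen.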

Other observations

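Some Wnt genes lie close to each other on their chromosome, at the positions in the deposited table, for which the sources used here name no build. Wnt6 ends 6407 bases before Wnt10a on chromosome 9. Wnt10a rose with all NMDA libraries above all PBS libraries, while Wnt6 had too few counts to test, at 0.0694 to 2.00 CPM after NMDA and 0.0392 to 1.27 CPM after PBS. Wnt9b and Wnt3 lie 23212 bases apart on chromosome 10. Wnt9b fell, and Wnt3, named here after its values were seen, averaged 0.374 ± 0.229 CPM after NMDA and 0.705 ± 0.236 CPM after PBS (SD, n = 6 each) and did not pass (log2 fold change -0.90 ± 0.42, SE; edgeR adjusted p = 0.109). Wnt3a and Wnt9a lie 15815 bases apart on chromosome 10, and Wnt10b and Wnt1 10711 bases apart on chromosome 7. Wnt3a, Wnt10b and Wnt1 had too few counts to test.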
